A study of Mus musculus with 6 samples.

Results

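Sphingosine-1-phosphate (S1P) is a signalling lipid made inside cells and read at their surface, and the genes described here are its 5 receptors (S1pr1 to S1pr5) and 5 proteins that make, break down or export it (Sphk1, Sphk2, Sgpl1, Sgpp1 and Spns2). They were taken by symbol from probe sets that carry exactly 1 gene symbol in the array annotation, and for a gene with several probe sets the brightest on average was kept. All 10 were found among the 22180 genes measured, and all 10 also lay above a minimum mean log2 intensity of 5. The family was chosen by symbol with the log2 difference between the groups already known, so these values are given as a description, and no p-value is printed for any member. Where a member is said below to be past a threshold, that too is a description and no test. The same holds for the alternative settings, which use the same mice again.

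The RNA came from cells of mouse gliomas that had been pulled out with magnetic beads by means of CD105 (endoglin, the product of Eng). They then spent 12 h in medium in which glioma cells had grown. The labels call them tumor-associated endothelial cells. There were 6 mice with 1 Affymetrix Mouse 2.0 ST array each: 3 of genotype Tie2-Cre,Pfn1fl/fl:Y129F (mice 1, 3 and 4, the Tie2-Cre group) and 3 of genotype Pfn1fl/fl:Y129F (mice 6, 7 and 10, the no Cre group). Both groups thus carry the floxed Pfn1 alleles and the Y129F form, and both received the conditioned medium, so that Cre is the labelled difference. Tie2-Cre is driven by the promoter of Tie2 (Tek), which is active in endothelial cells and also in many blood-forming cells. The ages of the mice and the way in which Cre rearranges these alleles are not given in the sources used here. What the series asks is what the phosphorylation of profilin-1, which binds actin, does to the RNA of these cells.

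As background, S1P is formed when a sphingosine kinase phosphorylates sphingosine, a product of ceramide breakdown, and it leaves the cell through exporters such as Spns2. Outside, it binds G protein-coupled receptors. In vessels, S1pr1 signals through Gi and Rac and tightens endothelial junctions, S1pr2 signals mainly through G12/13 and loosens them, and S1pr3 couples to Gi, Gq and G12/13. S1P is cleared by the lyase Sgpl1, which cleaves it for good, and by phosphatases such as Sgpp1, which return it to sphingosine.

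The arrays held no batch label. Across genes, any pair of arrays from the same group had a Pearson's r of at least 0.994, and any pair from opposite groups one of at most 0.988. Genes that differ between the sexes also parted the groups: Xist, which is transcribed from the inactive X chromosome, had a log2 intensity of 5.36 to 6.06 in the Tie2-Cre mice and of 11.16 to 11.44 in the others, and the 3 Y-linked genes measured were higher in each Tie2-Cre mouse. For every difference below, Cre and sex cannot be told apart. Pfn1 itself lay at 12.41 ± 0.0045 (SD, n = 3) in the Tie2-Cre group and 12.37 ± 0.026 (SD, n = 3) in the other, and its probe set cannot separate the Y129F form from unchanged Pfn1. Eng, the sorting antigen, lay at 11.76 ± 0.034 (SD, n = 3) in the Tie2-Cre group and 12.05 ± 0.036 (SD, n = 3) in the other, a change of -0.30 (SE 0.064, limma adjusted p 0.0217). Leaving out Tie2-Cre mouse 3 kept that call, and leaving out any other mouse ended it (adjusted p 0.0571 to 0.0827), as did adjustment over all probe sets (0.0579).

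The labelled cell type was checked against 16 endothelial markers. Their mean log2 intensities lay between 4.27 and 8.12, with a median of 6.39, against a median of 7.12 over all genes. Pecam1, Cdh5 and Tek lay at 6.24, 6.76 and 5.68 with Tie2-Cre and at 6.23, 7.02 and 5.91 without Cre. The median was 9.09 for 12 pericyte and smooth muscle markers and 10.51 for 12 fibroblast markers. These levels give no share of cells, since probe sets differ in brightness and the table holds no detection calls. In cells of mixed type, moreover, fewer cells of a type and less RNA per cell cannot be told apart.

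The 3 largest differences among the members, all toward higher values with Tie2-Cre, were those of S1pr3, S1pr2 and Sphk2, which is a description and no test. The sequences upstream of their transcription starts are shown so that these promoters can be compared. Each is the 250 bases before an annotated start, in RefSeq's annotation of build GRCm38.p6, read 5′ to 3′ on the gene's strand. Capitals mark matches, on either strand, to any of the motifs listed after the sequences. S1pr3 lies at chr13:51408368-51408617 on the plus strand, S1pr2 at chr9:20976794-20977043 on the minus strand, and Sphk2, with 2 annotated starts, at chr7:45718003-45718252 and chr7:45715208-45715457, both on the minus strand.
S1pr3: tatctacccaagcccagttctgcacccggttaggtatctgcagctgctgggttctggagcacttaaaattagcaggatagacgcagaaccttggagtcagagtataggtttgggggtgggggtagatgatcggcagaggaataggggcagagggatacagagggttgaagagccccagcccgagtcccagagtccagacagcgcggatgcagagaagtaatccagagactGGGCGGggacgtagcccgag
S1pr2: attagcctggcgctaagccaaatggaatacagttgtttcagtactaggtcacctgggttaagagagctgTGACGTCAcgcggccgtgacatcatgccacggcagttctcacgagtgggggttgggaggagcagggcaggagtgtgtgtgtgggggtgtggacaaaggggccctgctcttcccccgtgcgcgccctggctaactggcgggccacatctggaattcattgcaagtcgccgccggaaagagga
Sphk2, upstream start: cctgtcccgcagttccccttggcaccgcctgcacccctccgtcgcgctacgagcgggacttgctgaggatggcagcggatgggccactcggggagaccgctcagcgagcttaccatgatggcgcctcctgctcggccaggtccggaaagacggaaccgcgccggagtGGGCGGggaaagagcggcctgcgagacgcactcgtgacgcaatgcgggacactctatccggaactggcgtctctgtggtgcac
Sphk2, downstream start: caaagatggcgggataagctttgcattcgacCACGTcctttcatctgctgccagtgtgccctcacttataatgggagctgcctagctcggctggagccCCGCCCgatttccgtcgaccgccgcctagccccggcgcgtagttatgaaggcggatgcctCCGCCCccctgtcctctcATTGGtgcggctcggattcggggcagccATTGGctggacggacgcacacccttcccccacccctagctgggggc

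Sequence windows were held for 9 of the 10 members, with S1pr1 not among them, and for 14 starts in all. The motifs searched were the GC box (GGGCGG), the cAMP response element (TGACGTCA), the core of the hypoxia response element (ACGTG), the TATA box (TATAAA), the CCAAT box (CCAAT), the AP-1 site (TGANTCA) and the CArG box that serum response factor binds. Matches can overlap, and the CArG box in particular can hold a CCAAT box or a TATA box. The S1pr3 window held a GC box 20 to 15 bases before the start and no other motif of this set. A GC box was present in 32.7% of all 32851 windows of this length and in both Sphk2 windows. Counted by gene, in any of its windows, it was present in 4 of the 9 members and in 35.4% of all 27025 genes with a window. The S1pr2 window held no GC box, but a full cAMP response element 181 to 174 bases before the start, which 1.55% of all windows held and no other member did. The 50 bases after the start, which are not printed, were searched for this element only, and for none of the other motifs. There, the upstream start of Sphk2 held it at bases 4 to 11, and 1.79% of all windows of 300 bases held it. The downstream Sphk2 window also held the hypoxia core (16.6% of all windows) and 2 CCAAT boxes (33.8%). By gene, the TATA box (14.3% of all genes with a window) was found in 1 member, Sphk1, as was the AP-1 site (7.82%), and the CArG box (1.62%) in 0. These matches describe the letters of the windows only. Within the 250 bases before the starts, no motif of the set was held by all 3 of these genes.

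Among the receptors, S1pr3 stood apart. Its log2 intensity was 10.56, 10.50 and 9.64 in Tie2-Cre mice 1, 3 and 4, and 7.67, 7.90 and 8.10 in no Cre mice 6, 7 and 10. Every Tie2-Cre mouse was above every mouse without Cre, and mouse 4 was the lowest of its group. The means were 10.23 ± 0.51 (SD, n = 3) and 7.89 ± 0.22 (SD, n = 3), which is a difference of 2.34 on the log2 scale (SE 0.24, 95% confidence interval 1.80 to 2.89), or 5.08-fold. On the deposited linear scale, the 3 Tie2-Cre arrays read 1509, 1445 and 800.2 and the 3 others 203.3, 238.6 and 274.5. Of all genes, 99.95% had a smaller signed difference. The spread within the Tie2-Cre group was wide as well: its SD exceeded that of 99.6% of genes, whose median SD was 0.10 in that group. Without mouse 4 the difference came to 2.64, and over all 15 alternative settings it stayed between 2.18 and 2.64 and past the threshold.

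S1pr2, the receptor tied mainly to G12/13, was higher by much less. It read 9.81, 10.05 and 9.99 in Tie2-Cre mice 1, 3 and 4, and 9.49, 9.51 and 9.43 in no Cre mice 6, 7 and 10. The groups did not overlap, and the no Cre mice lay close together, with an SD of 0.041. The difference was 0.47 (SE 0.080, 95% confidence interval 0.29 to 0.66), or 1.39-fold. It remained past the threshold in all 15 alternatives, between 0.42 and 0.54.

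S1pr1, the main endothelial receptor and the one through which lymphocytes leave lymphoid organs, did not pass the threshold. Its values were 7.32, 7.40 and 7.37 in Tie2-Cre mice 1, 3 and 4, and 6.89, 7.20 and 7.17 in no Cre mice 6, 7 and 10. The groups did not overlap, but mouse 6 was low among the no Cre mice. The difference was 0.27 (SE 0.094), with a 95% confidence interval from 0.06 to 0.49, and it came to 0.18 without mouse 6. The probe set's level was close to the middle of all genes, 52.2% of which were dimmer.

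S1pr4, a receptor of lymphoid and other blood cells, and S1pr5, known from natural killer cells and oligodendrocytes, overlapped between the groups. S1pr4 read 6.71, 6.46 and 7.01 in Tie2-Cre mice 1, 3 and 4, and 6.70, 6.72 and 6.66 in no Cre mice 6, 7 and 10. The Tie2-Cre values of S1pr4 thus fell on both sides of the no Cre values. The difference was 0.03 (SE 0.13, 95% confidence interval -0.26 to 0.33), and it turned to -0.11 without Tie2-Cre mouse 4. S1pr5 read 7.14, 6.97 and 7.00 with Tie2-Cre and 6.89, 6.80 and 7.07 without, in the same order of mice. Its no Cre mouse 10 lay above 2 of the 3 Tie2-Cre mice. The difference of S1pr5 was 0.12 (SE 0.092, 95% confidence interval -0.09 to 0.33), and leaving out Tie2-Cre mouse 1 gave 0.07, no Cre mouse 7 gave 0.06 and no Cre mouse 10 gave 0.20. Neither interval reaches the size of the S1pr2 difference of 0.47. None of 12 measured T and NK cell markers, 5 B cell markers or 8 oligodendrocyte markers passed the limma threshold. Of all genes, 12.0% passed, and with lists this short nothing is read from these counts. At an unadjusted p under 0.05 there were 1, 0 and 0 of these markers, and the share of all genes at that cutoff was not counted. Those markers had mean log2 levels of 4.24 to 7.60, 5.34 to 6.60 and 5.44 to 7.17, against a median of 7.12 over all genes.

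**Figure D1:**
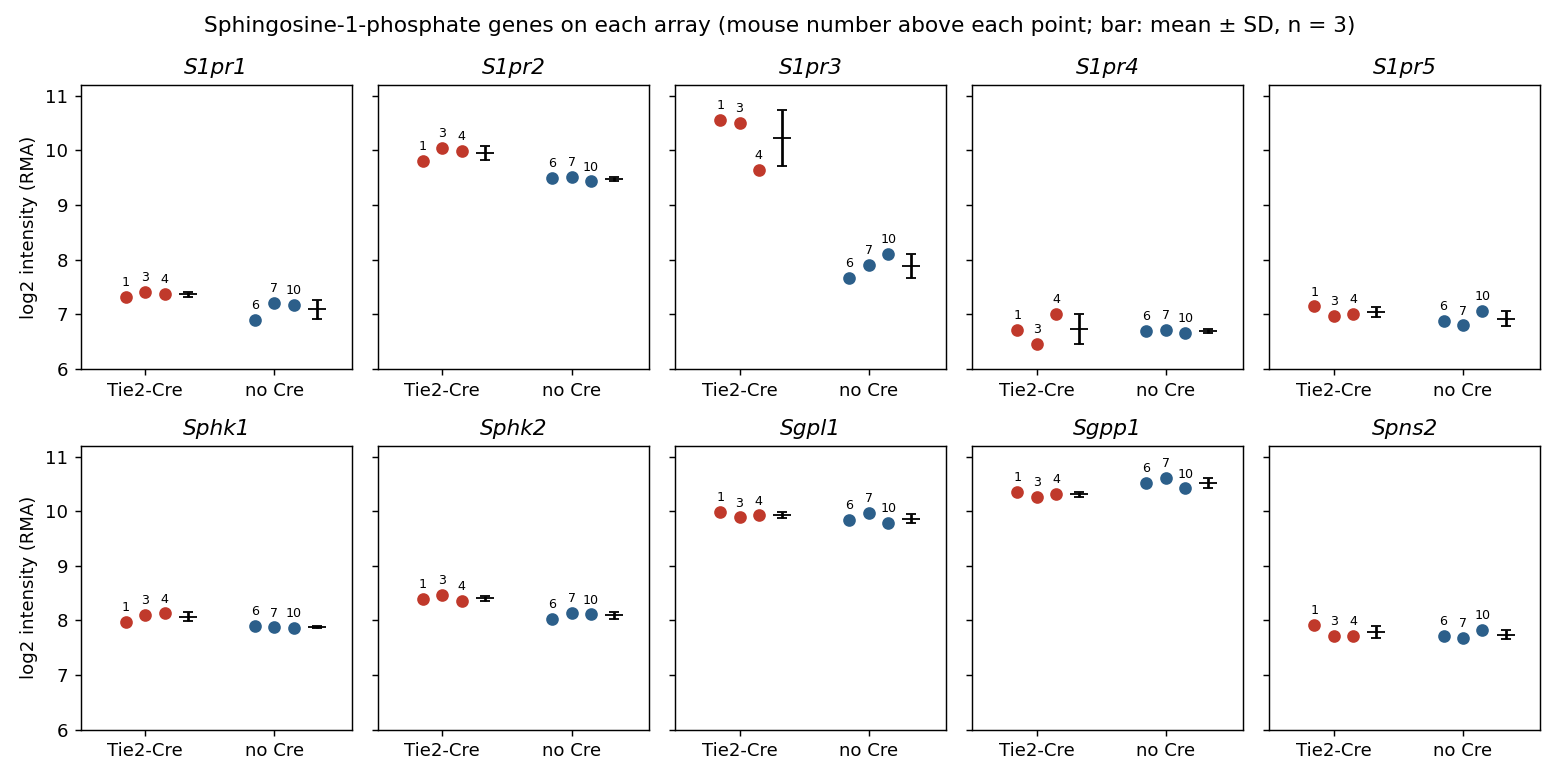
Log2 RMA intensity of the 10 genes on each array (y axis), by group (x axis), with the mouse number above each point and the mean ± SD of 3 mice as a bar; levels of different genes are not comparable, since probe sets differ in brightness. S1pr3 shows the widest gap, from 9.64 and above with Tie2-Cre to 8.10 and below without Cre, and Sgpp1 is the only gene whose Tie2-Cre points all lie below the others.

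Of the 2 kinases that form S1P, Sphk2, which acts largely in the nucleus and mitochondria, was higher with Tie2-Cre. It read 8.39, 8.46 and 8.36 in Tie2-Cre mice 1, 3 and 4, and 8.02, 8.14 and 8.11 in no Cre mice 6, 7 and 10. The groups did not overlap and both were tight, with an SD of 0.052 and 0.059. The difference was 0.31 (SE 0.069, 95% confidence interval 0.16 to 0.47), or 1.24-fold. Leaving out Tie2-Cre mouse 4 kept this call, but leaving out any other mouse ended it, and it was lost when p-values were adjusted over all probe sets, although the difference stayed between 0.28 and 0.34.

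Sphk1, the cytoplasmic kinase that is induced by growth factors, showed the same direction without passing the threshold. It read 7.97, 8.10 and 8.13 in Tie2-Cre mice 1, 3 and 4, and 7.89, 7.87 and 7.86 in no Cre mice 6, 7 and 10. The no Cre mice were nearly identical, and Tie2-Cre mouse 1 lay only a little above them. The difference was 0.19 (SE 0.070, 95% confidence interval 0.03 to 0.35).

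On the clearing side, Sgpp1, the phosphatase of the endoplasmic reticulum, was the only member with a negative difference. It read 10.36, 10.26 and 10.32 in Tie2-Cre mice 1, 3 and 4, and 10.52, 10.61 and 10.42 in no Cre mice 6, 7 and 10. The groups did not overlap, but no Cre mouse 10 came close to Tie2-Cre mouse 1. The difference was -0.20 (SE 0.074, 95% confidence interval -0.38 to -0.03) and did not pass the threshold, except with a variance trend and robust fit. A second, dimmer probe set of Sgpp1, which the rule set aside, gave -0.30 (SE 0.15). It was the one member with more than 1 probe set.

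The lyase Sgpl1 read 9.98, 9.89 and 9.92 in Tie2-Cre mice 1, 3 and 4, and 9.84, 9.96 and 9.79 in no Cre mice 6, 7 and 10. Its groups overlapped, with a difference of 0.06 (SE 0.073, 95% confidence interval -0.10 to 0.23), and leaving out Tie2-Cre mouse 1 gave 0.04, no Cre mouse 7 gave 0.11 and no Cre mouse 10 gave 0.03. The exporter Spns2, through which endothelial cells release S1P, read 7.92, 7.72 and 7.72 with Tie2-Cre and 7.72, 7.68 and 7.83 without, in the same order of mice. Tie2-Cre mouse 1 alone lay above all the no Cre mice. The difference of Spns2 was 0.05 (SE 0.083, 95% confidence interval -0.15 to 0.24) and it turned to -0.02 without mouse 1. For both genes, the interval leaves room for changes of up to about the size of that of Sphk1 but not for one as large as that of S1pr2.

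**Figure D2:**
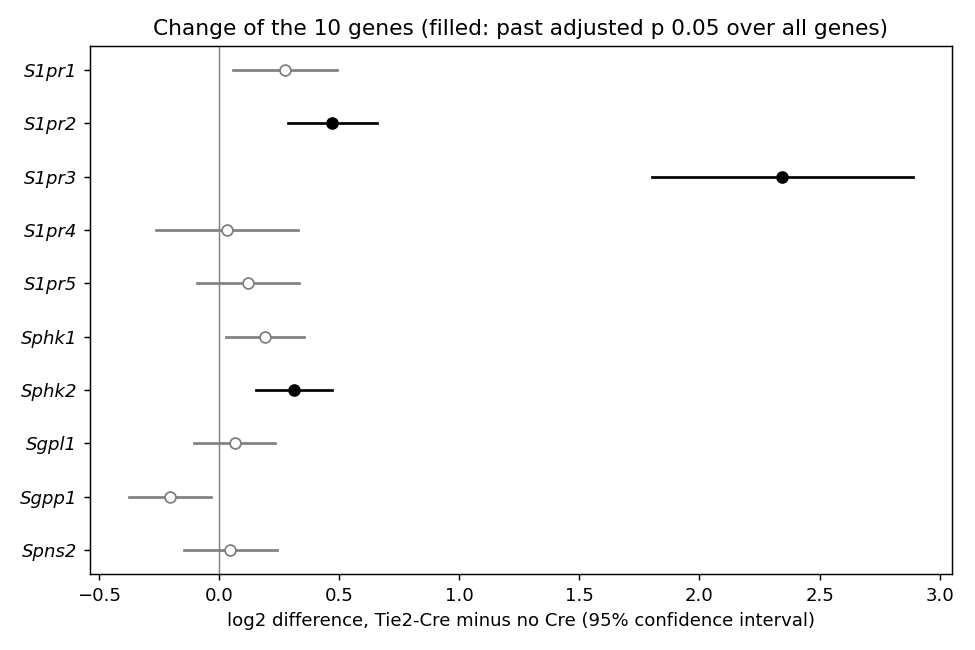
Log2 difference of each gene, Tie2-Cre minus no Cre (x axis), with its 95% confidence interval from the limma fit; filled points passed an adjusted p of 0.05 over all 22180 genes. S1pr3 at 2.34 lies far to the right of the rest, which range from -0.20 to 0.47.

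Over the family, 3 of 10 members passed the limma threshold (Benjamini-Hochberg adjusted p under 0.05 over all genes), all 3 higher and 0 lower. In the same fit 12.0% of all genes passed, 4.78% higher and 7.17% lower. The groups of 3 mice did not overlap in 6 of the 10 members, 5 higher and 1 lower, against 31.0% of all genes (13.6% higher and 17.5% lower). Since the family was chosen with this contrast in view, nothing is read from these shares. The sign was positive in 9 of 10 members, and the median difference was 0.16 for the 10 genes, 0.27 for the 5 receptors and 0.06 for the other 5, beside a median of -0.0042 over all genes. The counts over all 22180 genes, 1061 higher and 1591 lower, dropped to 667, 676 or 634 higher without no Cre mouse 6, 7 or 10, and to 1022, 910 or 1026 lower without the same mice. Leaving out Tie2-Cre mouse 1 gave 1046 lower genes.

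The genes whose profile over the 6 arrays was closest to that of S1pr3 were Fgf23, C1qtnf7, Cxcl5, Slc15a3 and Atp1b1. Likeness was measured as the root mean square distance between log2 profiles, each centred on its own mean, which rewards genes with a difference of the same size. The distance was 0.14 for Fgf23, a secreted hormone of phosphate balance, 0.24 for both the C1q-related gene C1qtnf7 and the neutrophil-attracting chemokine Cxcl5, 0.26 for the peptide transporter Slc15a3 and 0.30 for the sodium pump subunit Atp1b1. Fgf23 read 9.21, 9.33 and 8.45 in Tie2-Cre mice 1, 3 and 4, and 6.75, 6.91 and 6.89 in no Cre mice 6, 7 and 10. It therefore had the same low mouse 4 as S1pr3. C1qtnf7, at 9.63, 9.52 and 9.13, Slc15a3, at 8.10, 8.26 and 7.41, and Cxcl5, at 11.71, 11.72 and 10.89, were also lowest in mouse 4 of that group, whereas Atp1b1 lay at 9.53, 9.62 and 9.55. These 5 were picked for their likeness over the same 6 arrays, so it is a description of these mice.

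**Figure D3:**
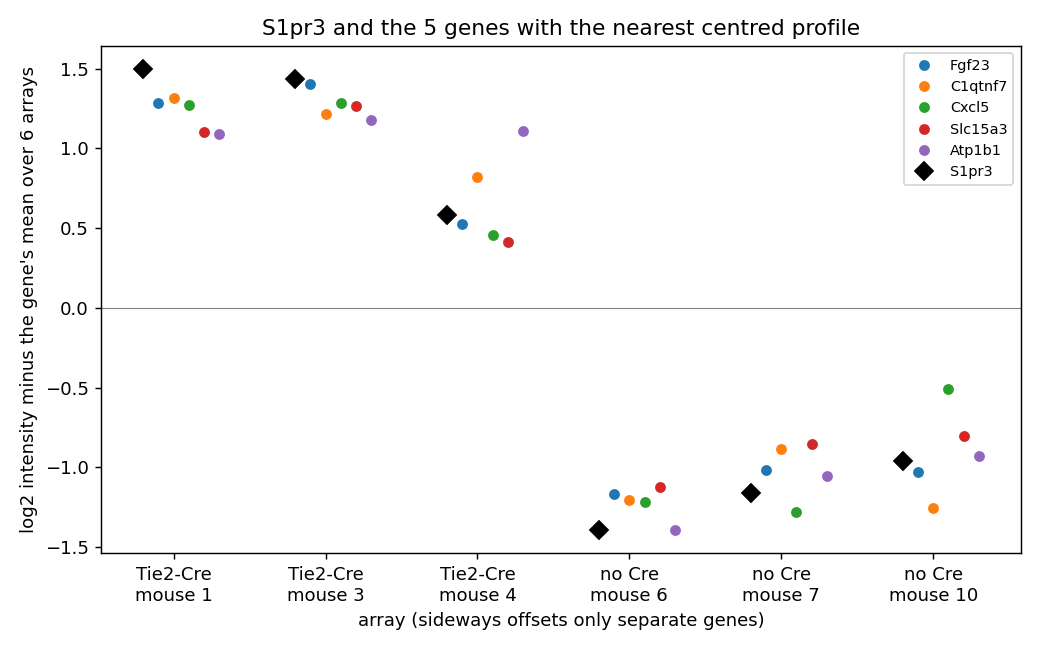
Log2 intensity of S1pr3 (diamonds) and of its 5 nearest genes (circles) on each array, minus each gene's own mean over the 6 arrays (y axis). S1pr3, Fgf23, C1qtnf7, Cxcl5 and Slc15a3 have their lowest Tie2-Cre point in mouse 4, while the points of Atp1b1 lie close together in that group.

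The rest of the sphingolipid pathway was followed in 4 lists of genes that feed S1P, consume it or carry its signal. Of 15 measured genes for the synthesis of sphingoid bases and ceramide, 1 was higher, 0 were lower and 14 did not pass, with a median difference of 0.01. The groups of mice did not overlap in 5 of the 15, 3 higher and 2 lower, against 31.0% of all genes. Beside the calls in this and all following lists, 12.0% of all genes passed, 4.78% higher and 7.17% lower. The higher gene was the ceramide synthase Cers4 (0.38, SE 0.071, limma adjusted p 0.0118), which read 9.44 to 9.60 with Tie2-Cre and 9.13 to 9.18 without. The subunits Sptlc1 and Sptlc2 of serine palmitoyltransferase, the first enzyme of the route, named after their values were seen, had differences of -0.01 (SE 0.075) and 0.01 (SE 0.065).

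The list of ceramide and sphingomyelin turnover mixes genes of several roles, among them enzymes that release sphingosine and enzymes that turn ceramide to other uses. Of its 19 measured genes, 7 were lower, 0 were higher and 12 did not pass, with a median of -0.18. At an unadjusted p under 0.05, 1 of the 19 was higher and 10 were lower, and the share of all genes at that cutoff was not counted. The neutral ceramidase Asah2 (-0.63, SE 0.077, limma adjusted p 0.00170) and the alkaline ceramidase Acer3 (-0.56, SE 0.065, adjusted p 0.00142) release sphingosine from ceramide. Sgms2, which turns ceramide into sphingomyelin, changed by -0.58 (SE 0.088, adjusted p 0.00470). Asah2 read 9.08, 9.15 and 8.98 in Tie2-Cre mice 1, 3 and 4, and 9.78, 9.71 and 9.62 in no Cre mice 6, 7 and 10. Acer3 was as clearly parted, at 8.25 to 8.33 with Tie2-Cre and 8.80 to 8.87 without. The calls of these 3 genes were kept in all 15 alternatives. The lysosomal acid ceramidase Asah1, named after its values were seen, had a difference of -0.09 (SE 0.069, adjusted p 0.519).

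Among 14 measured genes of S1P breakdown, carriage and export, 4 were higher, 1 lower and 9 did not pass, with a median of 0.02. Plpp1, a lipid phosphate phosphatase that faces the outside of the cell and removes phosphate from S1P and lysophosphatidic acid (LPA), rose by 1.34 (SE 0.16, limma adjusted p 0.00152). It read 11.52, 11.58 and 12.16 in Tie2-Cre mice 1, 3 and 4, and 10.38, 10.36 and 10.49 in no Cre mice 6, 7 and 10. Mouse 4, lowest of its group in S1pr3, was thus the highest in Plpp1. Its relative Plpp3 was higher by 0.48 (SE 0.13, adjusted p 0.0496), a call that stood when Tie2-Cre mouse 4 was left out, ended when any other mouse was (adjusted p 0.106 to 0.147) and ended with arrays centred on their medians or with p-values adjusted over all probe sets. The lipid exporter Abca1 rose by 0.54 (SE 0.061, adjusted p 0.00121), and the drug exporter Abcg2 was lower (-0.76, SE 0.087, adjusted p 0.00134). The fourth higher gene, named after its values were seen, was Alb, the plasma carrier albumin, whose probe set was dim (6.32 against 5.99). The call of Alb (0.33, SE 0.087, adjusted p 0.0468) ended when any single mouse was left out (0.0575 to 0.140), with another quantile normalization (0.0523) and with adjustment over all probe sets (0.110). The count of higher genes was 2 when either mouse 1 or mouse 3 of the Tie2-Cre group, or any mouse without Cre, was left out. Sgpp2, the relative of Sgpp1, had a difference of -0.05 (SE 0.11) and the carrier Apom one of -0.10 (SE 0.071), both named after their values were seen and neither past the threshold.

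Downstream of the receptors, 31 genes of G protein coupling and receptor trafficking were measured, of which 5 were higher, 1 was lower and 25 did not pass, with a median of 0.07. The regulators of G protein signalling Rgs5 (1.45, SE 0.063, limma adjusted p 1.29e-05) and Rgs2 (0.77, SE 0.14, adjusted p 0.0104, and 0.44 with the mean of its probe sets), which shut off Gi and Gq signals, and the Gi subunit Gnai1 (0.69, SE 0.088, adjusted p 0.00209) rose. The other 2 higher genes, named after their values were seen, were the Gq-family subunit Gna11 (0.29, SE 0.064, adjusted p 0.0253) and the phospholipase Plcb1 (0.45, SE 0.086, adjusted p 0.0136). The call of Gna11 stood without Tie2-Cre mouse 4 and ended without any other mouse (adjusted p 0.0672 to 0.0920) and with adjustment over all probe sets (0.0649), and that of Plcb1 ended without no Cre mouse 7 or 10 (0.0525 and 0.0528). The lower gene was Tiam1, an exchange factor that activates Rac (-0.91, SE 0.14, adjusted p 0.00470). Tiam1 read 8.06, 8.27 and 7.69 in Tie2-Cre mice 1, 3 and 4, and 8.88, 8.99 and 8.87 in no Cre mice 6, 7 and 10. The subunits Gna12 (0.09, SE 0.065) and Gna13 (-0.01, SE 0.064), to which S1pr2 couples, did not pass and were named after their values were seen. The count of higher genes was 3 without no Cre mouse 7 or 10. Rgs5 is also a pericyte marker. The 4 lists together held 79 measured genes, 10 higher and 9 lower, with a median difference of 0.02. Without overlap of the groups, 20 of the 79 lay higher and 17 lower, against 13.6% and 17.5% of all genes. By list, this was 1 higher and 10 lower for turnover, 5 and 2 for breakdown, carriage and export, and 11 and 3 for coupling.

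Several receptors of LPA, Lpar1 among them, belong to the same receptor family as those of S1P. Of the 4 LPA receptor genes that were measured, Lpar1 was lower (-0.57, SE 0.12, limma adjusted p 0.0176) and 3 did not pass, with a list median of -0.13. Lpar1 read 8.55, 8.46 and 8.16 in Tie2-Cre mice 1, 3 and 4, and 8.83, 9.08 and 8.97 in no Cre mice 6, 7 and 10. It differed in direction from S1pr3, and both were lowest in mouse 4 within the Tie2-Cre group. Leaving out no Cre mouse 7 or 10 ended its call (adjusted p 0.0673 and 0.0634), as did adjustment over all probe sets (0.0564).

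**Figure D4:**
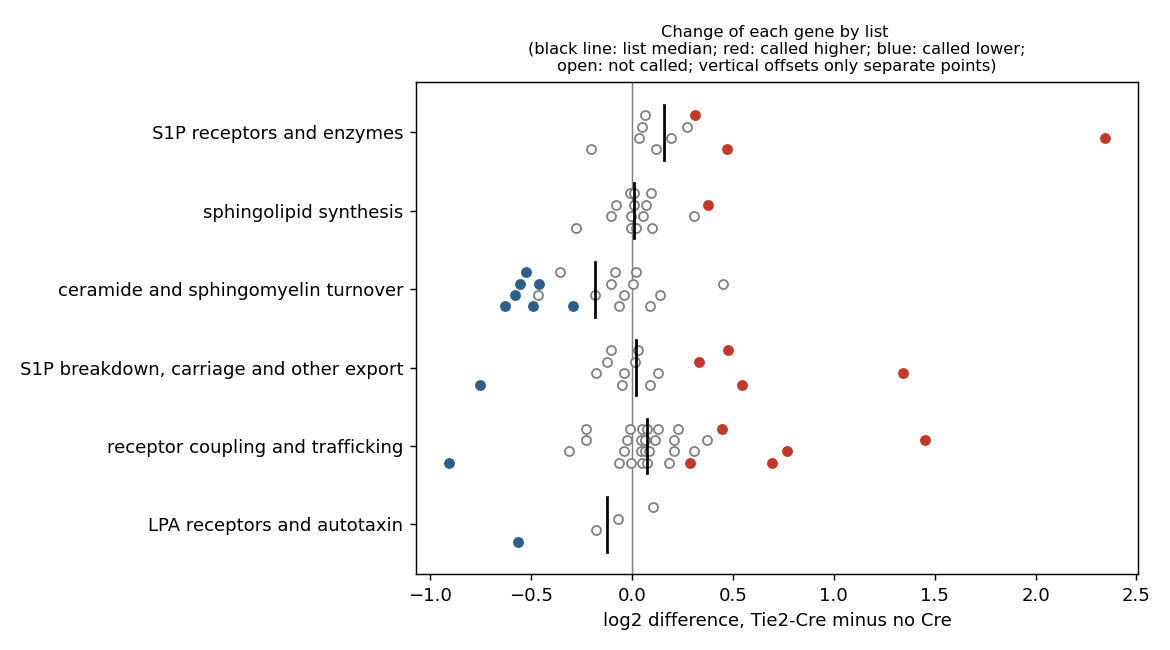
Log2 difference, Tie2-Cre minus no Cre (x axis), of each measured gene of the S1P family, the 4 pathway lists and the LPA receptors, with filled points for genes past an adjusted p of 0.05 and a black line at each list's median. The ceramide and sphingomyelin list has 7 filled points, all below 0, and the rightmost point of all is S1pr3.

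Markers of other cell types moved with the same groups of mice. Of 12 pericyte and smooth muscle markers, 6 were higher, 0 lower and 6 did not pass, with a median of 0.57 and a range of -0.10 to 1.45. The log2 of their summed intensity was 14.92 to 15.21 with Tie2-Cre and 14.42 to 14.51 without. Of 12 fibroblast markers, 5 were higher, 1 lower and 6 did not pass, with a median of 0.09 and a mean of 0.74. Their differences ranged from -0.76 to 3.54, which reaches past the 2.34 of S1pr3. Their summed log2 intensities were 15.27 to 15.33 against 15.17 to 15.19. S1pr3 is known from smooth muscle and fibroblasts as well as endothelium. Within the Tie2-Cre group, where S1pr3 was lowest in mouse 4, that mouse was the highest in 6 and the lowest in 2 of the 12 pericyte and smooth muscle markers, and the highest in 5 and the lowest in 5 of the 12 fibroblast markers. Ranks among so few mice of the same group do not bear on a difference between the groups, and nothing is read from them. The part of these cells in the S1pr3 difference was not tested.

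Of 16 endothelial markers, 1 was higher (Flt1), 0 lower and 15 did not pass, with a median of 0.02. At an unadjusted p under 0.05, 1 was higher and 1 lower, the latter Cdh5 (-0.26, SE 0.087, limma adjusted p 0.106). The summed log2 intensities of the 16 were 10.75 to 11.12 with Tie2-Cre and 10.68 to 10.72 without. Flt1, a VEGF receptor named after its values were seen, read 8.24, 8.44 and 9.35 in Tie2-Cre mice 1, 3 and 4, and 7.55, 7.69 and 7.47 in no Cre mice 6, 7 and 10. Bright genes weigh most in such a sum, and Flt1 had the highest mean of the 16 markers (8.12). Its call ended without no Cre mouse 6, 7 or 10 (limma adjusted p 0.0655 to 0.0909) and with adjustment over all probe sets (0.0797). Of 15 microglia and macrophage markers, 3 were lower, 0 higher and 12 did not pass, with a median of -0.02 and a range of -0.99 to 0.15. Their summed log2 intensities were 10.62 to 10.74 against 10.86 to 10.95. Of 8 mesothelial markers, 3 were lower, 0 higher and 5 did not pass, with a median of -0.18 and a range of -3.29 to 0.09. Their sums were 10.36 to 10.56 against 11.70 to 11.86. Of 9 astrocyte and glioma markers, 1 was higher, and of 5 red blood cell and platelet markers, which stand for the main blood sources of S1P, 0 passed the limma threshold, with 1 at an unadjusted p under 0.05. Without detection calls it is unknown which of these markers were at background. The part of these cell types in the other differences of the S1P genes was not tested either.

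**Figure D5:**
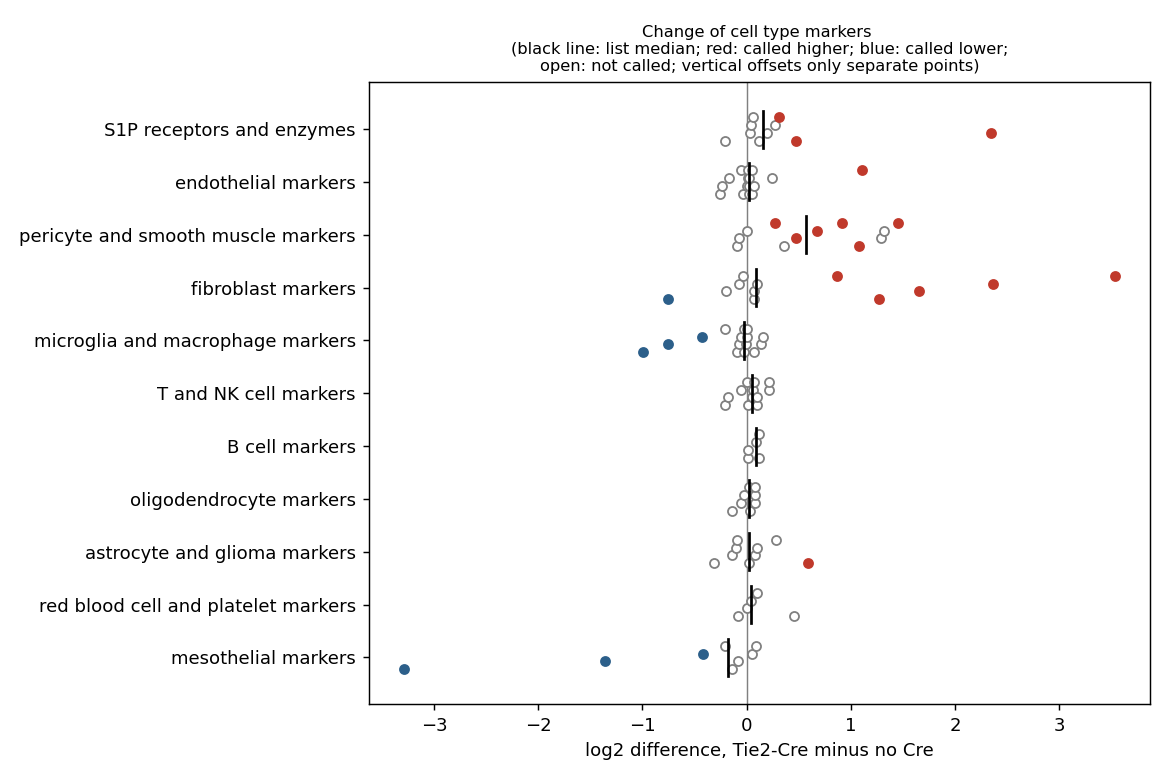
Log2 difference, Tie2-Cre minus no Cre (x axis), of the S1P genes and of each cell type's markers, with filled points for genes past an adjusted p of 0.05 and a black line at each list's median. The pericyte and smooth muscle median of 0.57 lies to the right of 0, while 15 of the 16 endothelial markers are open points.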

How the data were processed

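The 6 arrays were grouped by the genotype in their titles. Per the labels, the authors summarised each probe set by RMA, and the submitters' processing notes name Affymetrix Expression Console. The deposited table holds linear intensities. RMA corrects background and applies quantile normalization, so a shift common to all genes is not visible, and background understates changes of dim genes. No genome build of the array annotation is given in the sources used here. The log2 of the intensities was taken and fitted over 22180 genes (from 23521 of 41345 probe sets) with limma 3.58.1 in R 4.3.3 (lmFit, eBayes, two-sided), read with version 1.17.8 of data.table. The 95% intervals are limma's, p-values were Benjamini-Hochberg adjusted over all genes, and the threshold was 0.05. The precision is limited by having 3 arrays a group. The script was tested on simulated data.

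The members and lists were chosen with earlier results of these data known. Named were all members, up to 3 called genes per direction of each pathway list, 5 genes nearest to S1pr3 (Gm-numbered, Rik, pseudogene and small RNA symbols left out), Pfn1, Eng, sex-linked genes and the first 3 of the endothelial markers, and the text says where another gene was picked with its values in view. Listed genes without a value in the fit were not analysed here. Promoter windows came from RefSeq. The 15 alternatives are a minimum mean log2 of 5, the dimmest 33.3% left out, quantile normalization again, centred arrays, the mean of probe sets, adjustment over all probe sets, eBayes with trend and robust, array weights, an offset of 16 before log2, and each mouse left out.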

Additional observations from a re-analysis of the deposited data

How the results depend on the processing

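No paired analysis was possible because the groups share no mouse number. With 3 mice a group and no detection calls, differences of dim genes are the least certain. The differences of 8 members kept their sign in all 15 alternatives, and S1pr4 and Spns2, neither past the threshold, changed sign once each. The number of members called higher was 2 or 3 throughout, and 1 was called lower (Sgpp1) with eBayes with trend and robust. With all probe sets adjusted over, 609 genes were higher and 899 lower, 2 genes of S1P breakdown, carriage and export were higher and 0 LPA receptors lower. With a minimum mean log2 of 5, the dimmest genes left out, trend and robust, or the offset, 1 synthesis gene was called lower, and with the last 3 of these 2 coupling genes were lower. With the mean of probe sets, 2 genes of breakdown, carriage and export were lower. The cause was not tested. Leaving out each mouse gave 634 to 903 higher and 910 to 1253 lower genes. It also gave 0 to 1 synthesis gene lower, 0 to 1 turnover gene higher, 2 to 3 genes of breakdown, carriage and export higher, 3 to 6 coupling genes higher and 1 to 2 lower, and 0 to 1 LPA receptor lower.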
